A study of Mus musculus with 6 samples.

Results

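Spliceosome and splicing regulator genes were examined in the B lymphoma line CH12F3-2A, mouse cells able to switch from IgM to IgA, given siRNA against Spt6. The list held 51 genes, set by name with no threshold on a measured value, and 42 of them had a probe on the array and were tested, among 15224 genes tested in all. The 9 others (Snrpe, Lsm2, Lsm7, Sf3b4, Prpf4, Srsf3, Tra2b, Hnrnpa1 and Hnrnpm) had no probe under a symbol of their own and were not analysed here. Where a gene had several probes the brightest stood for it. The 42 comprised 21 genes of the snRNP core (Sm and Lsm proteins, U1 and U2 proteins, tri-snRNP and Prp19 proteins), both U2AF subunits, 7 SR and Tra2 genes, the kinases Clk1 and Clk4, and 10 hnRNP and PTB genes. Cells were electroporated with control siRNA (siControl, 3 samples) or with siRNA against Spt6 (siSpt6, 3 samples), a histone chaperone of transcription elongation encoded by Supt6. In both groups CD40L, IL4 and TGFb, together called CIT, were added 24 h later, and the cells were cultured for a further 24 h. The labels name the siSpt6 oligonucleotides as a modified commercial type and leave that of the control unnamed, and they say neither whether a group's samples were grown as separate cultures nor whether the arrays were run together. P-values therefore reflect the spread among these 6 samples alone, which may be technical. Levels are array intensities in arbitrary units, 1 Cy5-labelled RNA per array. All cells come from 1 line, and as these are bulk samples, fewer cells of a kind and less RNA per cell cannot be told apart.

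Introns are removed by the spliceosome, which is assembled from small nuclear ribonucleoproteins (snRNPs). Each snRNP holds a small RNA in a ring of Sm or Lsm proteins and carries particle-specific proteins: the U1 particle recognises the start of an intron, U2 the branch point, and the U4/U6.U5 tri-snRNP with the Prp19 complex brings about catalysis. Splice site choice is tuned by SR proteins, which mostly promote the use of an exon and are phosphorylated by CLK kinases, and by hnRNP proteins, which often repress it. Many SR and hnRNP genes control their own level through exons whose inclusion leads to decay of the transcript. In B cells, PTBP2, hnRNP K and hnRNP L have been studied as partners of AID, the deaminase that starts class switching.

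The arrays and labels were examined first. The comparison called 3525 of 21584 probes (16.3%). Between 21526 and 22372 of 23473 probes had a value on any one array, and log2 intensities correlated across probes, which are not independent replicates, with r of 0.988 to 0.991 within groups and 0.975 to 0.981 between them. The probe of Supt6, the siRNA's target, read 33.1, 32.1 and 32.1 with siControl and 25.1, 21.8 and 28.1 with siSpt6. Its log2 difference of -0.38 (SE 0.13) did not pass the threshold used throughout, a limma adjusted p under 0.05 over all probes (limma adjusted p = 0.0973). The limma adjusted p was 0.096 after quantile and 0.0491 after cyclic loess normalization, and 0.0728 to 0.222 when 1 array was left out. All 3 siSpt6 values were lower. The 9 tested B cell markers all had a mean level above the array median. Of the other lineages' markers, 7 of 8 T cell, 5 of 6 myeloid and 2 of 2 erythroid genes lay below it. The exceptions were Cd28 and Csf1r. Of the defining T cell genes, Cd3e and Cd3g were between 1.16 and 2.83 and Cd3d between 15.1 and 26.7. The B cell markers summed to between 11714 and 13803 on the siControl arrays and between 15379 and 17060.5 on the siSpt6 arrays, a sum to which Cd79b contributed most. Among them Cd79b and Blk rose and Cd22 fell. When arrays were left out in turn, Cd79b kept its call only without siControl replicate 2, Blk only without siSpt6 replicate 2, and Cd22 only without siControl replicate 1, with a highest limma adjusted p of 0.104, 0.107 and 0.083. The T cell markers summed to between 1368 and 1530.1 with siControl and between 883 and 1023 with siSpt6, nearly all of it Cd28, which fell (log2 difference -0.65, limma adjusted p = 0.013). The myeloid sums were 70.4 to 87.5 and 85.1 to 92.6, and the erythroid sums 47.3 to 56.7 and 39.0 to 47.8. The myeloid marker Csf3r rose on a very dim probe (2.62 to 5.64, log2 difference 0.68, limma adjusted p = 0.0495). It kept its call only without siSpt6 replicate 2 (limma adjusted p up to 0.13). The part of these shifts in the results below was not tested.

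Every splicing gene of the list that passed the test was lower in siSpt6, and more genes did not pass it than did. Of the 42 genes tested, 20 fell and 0 rose (limma, Benjamini-Hochberg adjusted p under 0.05 over all probes). Of all 15224 genes, 9.65% fell and 7.4% rose. At an unadjusted p under 0.05, 28 members were lower and 1 was higher, against 17.4% and 13.9% of all genes. The median log2 difference of the 42 was -0.52, against -0.0019 for all genes, and 39 of the 42 differences were below 0 (34 after quantile and 35 after cyclic loess normalization). In 30 members siSpt6 lay wholly below siControl, in 1 (Lsm4) wholly above, and in 11 the groups overlapped. Over the 14405 genes measured on all 6 arrays, 21.6% had siSpt6 wholly below and 16.9% wholly above siControl. Most differences were modest. Falls of 2-fold or more were seen in 2 genes, Snrpa1 and Sf3b3, both of the U2 snRNP.

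The list was brighter than most genes, and bright genes were lower in siSpt6 as a class. The members' median log2 level was 10.00, against 5.30 over all genes. Among the 1692 genes whose probes lay between the 25th and the 75th percentile of the members' brightness, the median log2 difference was -0.19, and 23.6% of these genes fell. Quantile and cyclic loess normalization, which align the arrays along brightness, moved the median of those 1692 genes to 0.03 and 0.0012 and that of the splicing genes to -0.31 and -0.34. After quantile normalization 9 members fell and 1 rose, with 7.15% of all genes falling and 8.68% rising. After cyclic loess 13 fell and 1 rose, with 8.03% and 8.51% of all genes. Which scaling is closer to the RNA content of the cells was not tested.

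**Figure D1:**
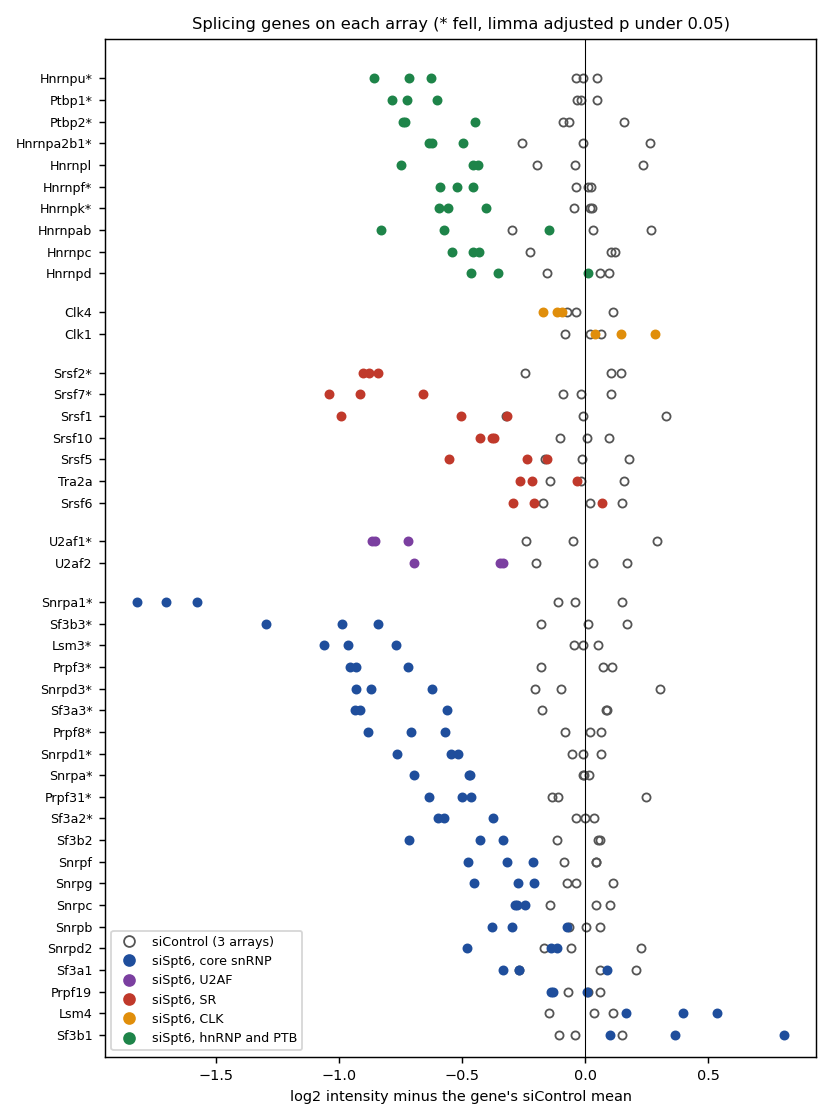
Log2 intensity of each splicing gene on each array, minus that gene's siControl mean, with open points for the 3 siControl arrays and filled points for the 3 siSpt6 arrays, grouped by class. Genes marked with a star fell (limma adjusted p under 0.05, deposited values); Snrpa1 lies farthest to the left and Sf3b1 and Lsm4 to the right.

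**Figure D2:**
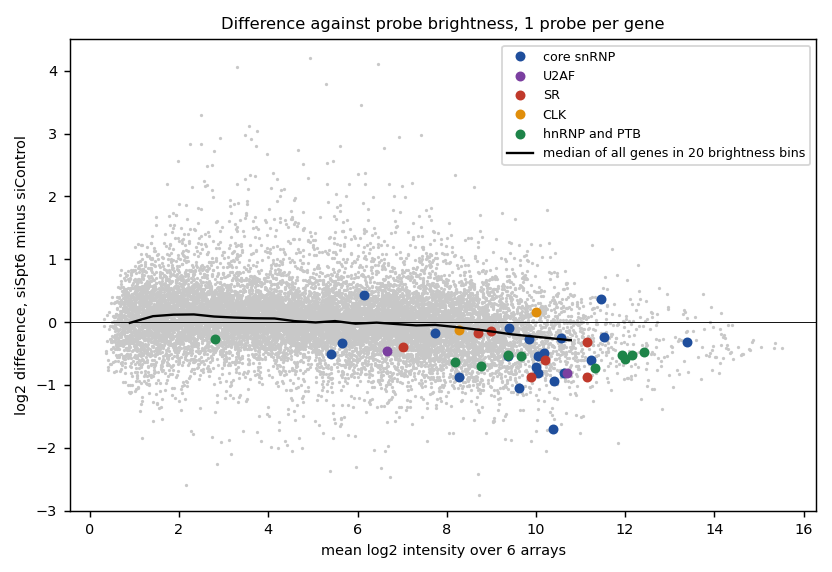
Log2 difference (siSpt6 minus siControl) of each gene against its mean log2 intensity over the 6 arrays, with splicing genes in colour, all 15224 genes in grey and their median in 20 brightness bins as a line. The line falls below 0 at the bright end, and most splicing genes lie below the line.

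Genes of the U1 and U2 snRNPs held the largest change of the list. Of 9 tested, 5 fell (55.6%) and 0 rose, with a median log2 difference of -0.52. The share was 9.65% for all genes and 23.6% for the 1692 genes of the list's brightness. After quantile normalization 3 of the 9 fell, and after cyclic loess 4. Snrpa1, which encodes the A-prime protein of U2, read 2350.2, 2684 and 2238 with siControl and 685, 809.5 and 743 with siSpt6. It fell 3.25-fold (log2 difference -1.70, SE 0.13, limma adjusted p = 0.000746), with no siSpt6 array close to the control range. Sf3b3, a subunit of the SF3b complex that holds the branch point, read 997, 1137 and 1268 with siControl and 459, 569 and 629 with siSpt6, and fell 2.06-fold (log2 difference -1.04, SE 0.16, limma adjusted p = 0.00777). Both calls were kept after either normalization and without any 1 array. Sf3a3, a subunit of the companion complex SF3a, fell 1.75-fold from 1409.7 ± 143 to 810.3 ± 123 (mean intensity with SD, n = 3 per group). This call was lost without siControl replicate 1 or 2 or siSpt6 replicate 1 (limma adjusted p up to 0.0519) and with quantile normalization (0.0508). Its partner Sf3a2, on a probe dim for the list, fell 1.43-fold from 50.7 ± 1.24 to 35.6 ± 3.04. The fall of Sf3a2 was kept after both normalizations and lost without siControl replicate 1, 2 or 3 or siSpt6 replicate 1 or 2 (limma adjusted p up to 0.0835). Snrpa, an RNA-binding protein of U1, fell 1.46-fold from 796 ± 6.92 to 547 ± 47.6, a call lost whichever of the 6 arrays was left out (limma adjusted p 0.0508 to 0.0706) and after both normalizations (0.123 and 0.103).

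The other U1 and U2 genes did not pass the threshold. Sf3b1, the SF3b subunit that contacts the branch point, read 59.0, 67.2 and 56.3 with siControl and 78.0, 65.0 and 106 with siSpt6, on a probe far dimmer than that of most members. Its log2 difference of 0.42 (95% interval -0.04 to 0.89) had the opposite sign to the others, and the groups overlapped. Sf3b2 (log2 difference -0.49, limma adjusted p = 0.0588) and Snrpc, of the U1 particle, (-0.27, 0.178) had siSpt6 wholly below siControl. Sf3a1 overlapped between the groups (-0.17, limma adjusted p = 0.578). Log2 differences of the tested SF3a and SF3b subunits ran from -1.04 for Sf3b3 to 0.42 for Sf3b1, and whether any pair of them differed was not tested.

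The 250 bases upstream of the most upstream annotated start are shown for 4 members, to let the promoters of genes that fell be read beside one that did not pass the test. They come from RefSeq (GRCm38.p6), 5′ to 3′ on the gene's strand. Snrpa1, Prpf3 and Sf3a3 had the largest falls, and Prpf19 the highest log2 difference, among 10 members whose window overlaps no other annotated gene. Capitals mark matches on either strand to 4 motifs: the E-box CACGTG, bound by Myc among others, the GC box GGGCGG, the CCAAT box CCAAT, and the ETS site CCGGAAG.
Snrpa1 (chr7:66060086-66060335, plus strand): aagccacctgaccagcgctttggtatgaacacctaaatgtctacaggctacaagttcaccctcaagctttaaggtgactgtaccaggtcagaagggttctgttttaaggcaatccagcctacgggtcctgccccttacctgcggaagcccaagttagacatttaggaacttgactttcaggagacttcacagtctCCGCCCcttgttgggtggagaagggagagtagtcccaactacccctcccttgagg
Prpf3 (chr3:95855886-95856135, minus strand): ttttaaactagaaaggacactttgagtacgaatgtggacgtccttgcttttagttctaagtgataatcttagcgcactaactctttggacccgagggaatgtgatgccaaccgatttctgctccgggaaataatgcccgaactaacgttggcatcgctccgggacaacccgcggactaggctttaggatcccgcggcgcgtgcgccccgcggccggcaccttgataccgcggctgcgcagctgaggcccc
Sf3a3 (chr4:124714611-124714860, plus strand): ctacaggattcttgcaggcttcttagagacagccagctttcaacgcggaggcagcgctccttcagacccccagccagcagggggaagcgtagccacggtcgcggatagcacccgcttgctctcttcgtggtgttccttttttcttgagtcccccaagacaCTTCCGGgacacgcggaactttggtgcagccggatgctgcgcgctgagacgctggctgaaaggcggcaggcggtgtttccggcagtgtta
Prpf19 (chr19:10894981-10895230, plus strand): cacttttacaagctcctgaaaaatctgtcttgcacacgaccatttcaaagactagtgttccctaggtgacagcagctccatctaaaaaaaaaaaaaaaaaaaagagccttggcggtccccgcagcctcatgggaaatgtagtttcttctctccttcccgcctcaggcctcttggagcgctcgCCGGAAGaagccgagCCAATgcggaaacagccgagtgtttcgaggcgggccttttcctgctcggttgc
Snrpa1 held 1 GC box, Prpf3 none of the 4 motifs, Sf3a3 1 ETS site, and Prpf19 1 ETS site and 1 CCAAT box. A window was used for 37 of the 42 genes: 19 of the 20 that fell and 18 others. An E-box was present in 3 of 37 windows (2 of 19 genes that fell, Ptbp1 and Snrpa, and 1 of 18 others), against 6.65% of the windows of 17492 protein-coding genes and 6.04% of all 27025 windows. An ETS site was present in 12 of 37 (5 of 19 and 7 of 18), against 9.15% of coding and 7.07% of all windows. A GC box was present in 22 of 37 (10 of 19 and 12 of 18), against 42.7% and 33.0%, and a CCAAT box in 18 of 37 (9 of 19 and 9 of 18), against 36.5% and 34.5%. These are matches of letters, given as a description.

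Among the Sm ring proteins, of 6 genes tested, 2 fell (33.3%) and 0 rose, with a median log2 difference of -0.32. Of all genes 9.65% fell, and of the 1692 genes of the list's brightness 23.6%. After either normalization 0 of the 6 fell. Snrpd3 read 2575, 1949 and 1813 with siControl and 1355, 1096 and 1143 with siSpt6 and fell 1.75-fold (limma adjusted p = 0.0221). Snrpd1 read 2931, 2848 and 3084 with siControl and 2022, 1739 and 2066 with siSpt6 and fell 1.52-fold (limma adjusted p = 0.0178). In both, siSpt6 lay wholly below siControl. The fall of Snrpd3 was lost without siControl replicate 1 or siSpt6 replicate 2 or 3 (limma adjusted p up to 0.0745) and that of Snrpd1 without siControl replicate 1 or 3 or siSpt6 replicate 2 (up to 0.0556). Both were lost after quantile (0.0824 and 0.164) and cyclic loess normalization (0.0632 and 0.0982). Snrpb, Snrpd2, Snrpf and Snrpg had log2 differences of -0.25, -0.25, -0.34 and -0.31 (limma adjusted p = 0.245, 0.372, 0.117 and 0.147). The groups overlapped for Snrpd2, and siSpt6 lay wholly below siControl for the other 3. After quantile normalization Snrpb, Snrpd2 and Snrpg were slightly above 0 (0.03, 0.06 and 0.07). Snrpg had a second, much dimmer probe that read 92.4, 101 and 87.3 with siControl and 51.6, 55.2 and 62.1 with siSpt6. On that probe the log2 difference was -0.73 and passed the threshold (limma adjusted p = 0.0109). The probes of this gene thus differed in call, while siSpt6 lay wholly below siControl on both. Whether the fall differed between them was not tested. Whether probes also bind near-identical gene copies was not tested.

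The 2 Lsm genes went apart. Lsm3 and Lsm4 encode subunits of the ring on U6 RNA, and both are also part of the ring that acts in cytoplasmic mRNA decay. Lsm3 read 1855, 1934 and 1810.2 with siControl and 894, 1094 and 958 with siSpt6. It fell 1.91-fold (log2 difference -0.93, SE 0.12, limma adjusted p = 0.00449), kept after both normalizations and without any 1 array. Lsm4 read 2223, 2663 and 2519.9 with siControl and 3572, 3243 and 2763 with siSpt6. All 3 siSpt6 values were higher, but the difference of 0.37 (SE 0.14) did not pass the threshold in the deposited values (limma adjusted p = 0.139). After quantile normalization (log2 difference 0.67, limma adjusted p = 0.0332) and cyclic loess (0.64, 0.0322) Lsm4 passed it, and was the 1 member called higher there.

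Of the 4 tested genes of the tri-snRNP and Prp19 complex, 3 fell, and 2 after either normalization. As deposited, 9.65% of all genes fell and 23.6% of the 1692 genes of the list's brightness. Prpf8, the large U5 protein at the catalytic centre, read 1372, 1239 and 1328 with siControl and 802, 712 and 884 with siSpt6 and fell 1.65-fold (log2 difference -0.72, SE 0.13, limma adjusted p = 0.0117). Prpf3, a U4/U6 protein, read 442, 371 and 453 with siControl and 221, 217 and 256 with siSpt6 and fell 1.83-fold (-0.87, SE 0.14, limma adjusted p = 0.00776). Both calls were kept after either normalization and without any 1 array. Prpf31, which bridges U4/U6 to U5, fell 1.45-fold from 1284 ± 199 to 882 ± 54.1 (mean intensity with SD, n = 3 per group), close to the threshold (limma adjusted p = 0.0497). That call was lost whichever of the 6 arrays was left out (limma adjusted p 0.0674 to 0.121) and after both normalizations (0.228 and 0.19). Prpf19, the ubiquitin ligase that names the Prp19 complex, read 719, 657 and 696 with siControl and 694, 631 and 626 with siSpt6, so the groups overlapped. Its log2 difference was -0.09 (95% interval -0.35 to 0.18), and had the opposite sign after quantile (0.11) and cyclic loess normalization.

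The U2AF heterodimer marks the end of the intron for U2. Its small subunit U2af1, which reads the terminal AG, read 2673, 2107 and 1847 with siControl and 1326, 1207 and 1197 with siSpt6 and fell 1.76-fold (log2 difference -0.81, SE 0.16, limma adjusted p = 0.0172). The call was lost without siSpt6 replicate 2 or 3 (limma adjusted p up to 0.0588) and with quantile normalization (0.0668). The large subunit U2af2, which binds the polypyrimidine tract, read 134, 122 and 104 with siControl and 93.8, 94.5 and 73.5 with siSpt6. Its siSpt6 values were all lower, with a log2 difference of -0.46 that did not pass the threshold (limma adjusted p = 0.102).

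SR genes split into a pair that fell and a larger number that did not pass the test. Of 7 tested, 2 fell and 0 rose, and the median log2 difference was -0.39. Srsf2 read 1419.8, 1380.0 and 1083 with siControl and 717, 699 and 688 with siSpt6 and fell 1.83-fold (log2 difference -0.87, SE 0.14, limma adjusted p = 0.00818). Srsf7 read 3304, 3036 and 2884 with siControl and 1943, 1628 and 1491 with siSpt6 and fell 1.83-fold (-0.87, SE 0.14, limma adjusted p = 0.00832). Neither overlapped between the groups, and both calls were kept without any 1 array; that of Srsf7 was lost after quantile normalization (limma adjusted p = 0.0503). Srsf1, a founding member of the family, read 1830.3, 1447 and 1166 with siControl and 1168, 1026 and 732 with siSpt6. Its replicates spread widely, the highest siSpt6 value lay just above the lowest control value, and the log2 difference of -0.60 (SE 0.23) did not pass the threshold (limma adjusted p = 0.133). Srsf10 read 149, 138 and 159 with siControl and 114, 111 and 115 with siSpt6, wholly lower in siSpt6 (-0.39, limma adjusted p = 0.0592).

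Srsf5, Srsf6 and Tra2a, a splicing activator related to the SR proteins, overlapped between the groups. Their log2 differences were -0.32, -0.14 and -0.17, with 95% intervals of -0.69 to 0.06, -0.50 to 0.21 and -0.49 to 0.15. After either normalization the difference of Srsf6 lay slightly above 0. Neither kinase of SR proteins passed the threshold. Clk1 read 1011, 913 and 981 with siControl and 1178, 1070.4 and 995 with siSpt6 (log2 difference 0.16, 95% interval -0.13 to 0.44), and Clk4 read 316, 308 and 351 with siControl and 288, 300.0 and 304 with siSpt6 (-0.13, -0.39 to 0.14). The groups overlapped for Clk1, and siSpt6 lay just below siControl for Clk4. A probe listed as Sfrs10, an older symbol shared by several genes, was counted for none. It read 431, 400.2 and 361 with siControl and 229.5, 289 and 262 with siSpt6 (log2 difference -0.61, limma adjusted p = 0.0271). The probe may measure Tra2b, which had no probe under its own symbol, but that was not tested. The counts of SR and Tra2 genes leave it out.

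Of 10 tested genes of hnRNP proteins and of the polypyrimidine tract binding proteins (PTB), 6 fell and 0 rose, and all 10 log2 differences were below 0, from -0.73 to -0.27 with a median of -0.53. Hnrnpu, a nuclear scaffold protein, read 3211, 3273 and 3406 with siControl and 2136, 1818 and 2008 with siSpt6 and fell 1.66-fold (SE 0.12 on the log2 scale, limma adjusted p = 0.00796). This call was kept without any 1 array and lost after quantile normalization (limma adjusted p = 0.0556). Ptbp1, a repressor of many exons, read 543, 549.7 and 574 with siControl and 323, 337 and 367 with siSpt6 and fell 1.63-fold (log2 difference -0.70, SE 0.11, limma adjusted p = 0.0081). Its paralog Ptbp2, best known from neurons, where it takes over from Ptbp1, read 347, 341 and 405 with siControl and 219, 217 and 266 with siSpt6 and fell 1.56-fold (-0.64, SE 0.14, limma adjusted p = 0.0245). Both PTB calls were kept after either normalization; that of Ptbp1 was kept without any 1 array and that of Ptbp2 was lost without siControl replicate 1, 2 or 3 or siSpt6 replicate 1 or 2 (limma adjusted p up to 0.0791). PTBP1 is known to repress Ptbp2 in other cells, and here both transcripts were lower.

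A further 3 hnRNP genes fell with less stable calls. Hnrnpk read 814, 808 and 772 with siControl and 542, 529 and 604 with siSpt6 and fell 1.43-fold (limma adjusted p = 0.0246). Hnrnpf read 4764, 4722 and 4559 with siControl and 3417, 3110.0 and 3258 with siSpt6 and fell 1.44-fold (limma adjusted p = 0.0201). Hnrnpa2b1 read 5013, 6051 and 4222 with siControl and 3276, 3568 and 3246 with siSpt6 and fell 1.50-fold (limma adjusted p = 0.0477). In each, siSpt6 lay wholly below siControl. The call of Hnrnpk was lost without siControl replicate 1, 2 or 3 or siSpt6 replicate 1 or 2 (limma adjusted p up to 0.0779), that of Hnrnpf without siControl replicate 1 or 2 or siSpt6 replicate 2 (up to 0.0673) and that of Hnrnpa2b1 without siControl replicate 1 or 2 or siSpt6 replicate 1, 2 or 3 (up to 0.118). All 3 were lost after quantile (0.0914, 0.292 and 0.304) and cyclic loess normalization (0.0655, 0.208 and 0.255). Hnrnpl read 949.6, 853 and 1151 with siControl and 723, 582 and 712 with siSpt6, wholly lower in siSpt6, and Hnrnpc likewise (6519 ± 842 in siControl and 4659 ± 184 in siSpt6, mean intensity with SD, n = 3 per group). Their log2 differences of -0.55 and -0.48 did not pass the threshold (limma adjusted p = 0.0623 and 0.0574). Hnrnpab overlapped between the groups (-0.52, limma adjusted p = 0.17). Hnrnpd read 6.84, 7.93 and 8.14 with siControl and 7.68, 5.95 and 5.52 with siSpt6, on the dimmest probe of the list, and overlapped between the groups (log2 difference -0.27).

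The classes were set side by side as the median, on each array, of the genes' log2 intensity minus their siControl mean. For the snRNP core (21 genes) these medians were -0.48, -0.47 and -0.48 on siSpt6 replicates 1, 2 and 3. For SR genes (7) they were -0.32, -0.43 and -0.55, and for hnRNP and PTB genes (10) -0.57, -0.66 and -0.46. The siControl medians lay between -0.04 and 0.05 for the core and hnRNP classes and between -0.14 and 0.14 for SR genes. In each of the 3 classes all siSpt6 arrays were below all siControl arrays, and the classes' siSpt6 ranges overlapped. By calls, 11 of 21 core genes, 2 of 7 SR genes and 6 of 10 hnRNP and PTB genes fell, with 9.65% of all genes falling. Among the 1692 genes of the members' brightness 23.6% fell, to which the SR share of 28.6% was close. After quantile normalization 6 core, 1 SR and 2 hnRNP and PTB genes fell, with 7.15% of all genes. The last 2 were Ptbp1 and Ptbp2. Of the 8 hnRNP genes without PTB, 4 fell as deposited, 0 after quantile normalization and 1 after cyclic loess. Whether the classes differ from each other was not tested, since genes of a class are not replicates. After quantile normalization the siSpt6 medians were -0.21, -0.28 and -0.37 for the core, -0.09, -0.23 and -0.35 for SR genes and -0.23, -0.47 and -0.32 for hnRNP and PTB genes. There the SR genes on siSpt6 replicate 1 came within the siControl range, whose lowest value was -0.11.

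**Figure D3:**
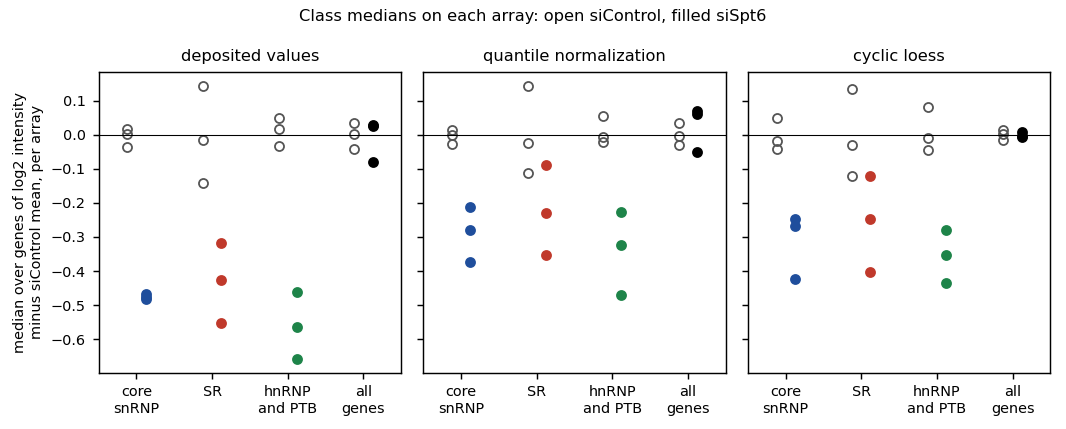
Median over the genes of a class of log2 intensity minus the siControl mean, for each siControl array (open) and siSpt6 array (filled), in the deposited values and after 2 normalizations. Core snRNP, SR and hnRNP medians are lower in siSpt6 with the deposited values, by less after normalization, while the median of all genes stays near 0.

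Across the list, 7 of the 20 falls were kept after both normalizations and without any 1 array. They were Snrpa1, Sf3b3 and Lsm3, Prpf3 and Prpf8, Srsf2 and Ptbp1, from the U2, U6, tri-snRNP, SR and PTB groups of the list. How many of the 1469 genes that fell in all would be kept in the same way is not given here. Whether the list's calls are more or less stable than those of other genes was not tested. The number of members that fell dropped to between 10 and 15 when 1 array was left out, being 11, 12, 13 and 10 without siControl replicate 1 or 2 and without siSpt6 replicate 1 or 2 in turn. In those fits 23.8% to 35.7% of members fell, and the share of all genes that fell dropped as well, to between 5.42% and 7.39%.

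**Figure D4:**
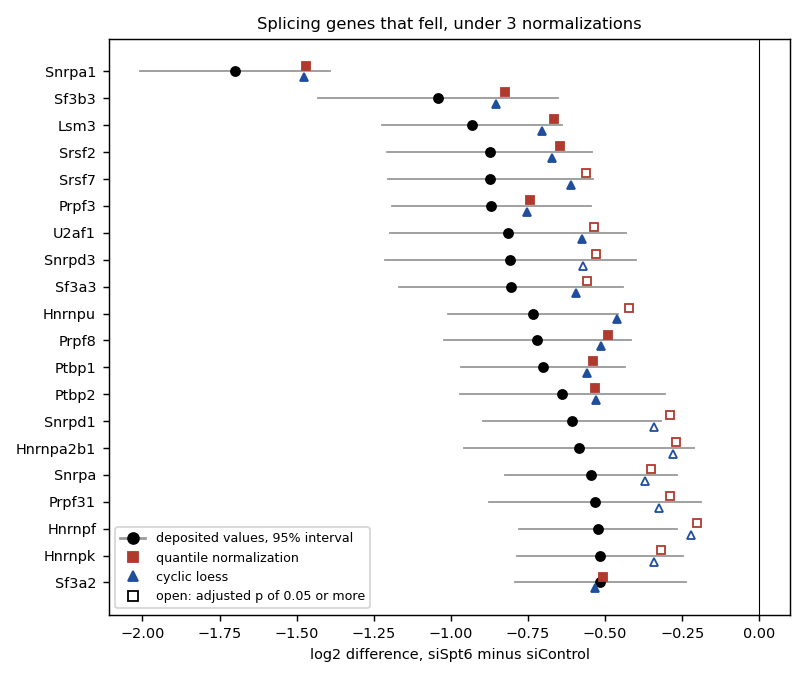
Log2 differences (siSpt6 minus siControl) of the 20 splicing genes that fell, with 95% intervals for the deposited values, and the values after quantile and cyclic loess normalization, open where the limma adjusted p was 0.05 or more. All points lie below 0, and the normalized values lie closer to 0 for all 20 genes except Sf3a2, whose cyclic loess value lies slightly farther out.

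Further splicing genes, listed by role, were also lower more often than higher. Of 142 tested, 37 fell (26.1%) and 3 rose, with a median log2 difference of -0.24, where 9.65% of all genes fell and 7.4% rose. Among the 1692 genes of the list's brightness 23.6% fell and the median was -0.19, both close to the values here. The 142 genes were not themselves matched for brightness. After quantile normalization 14 fell and 7 rose, and after cyclic loess 17 and 7. After quantile normalization those shares were 9.86% and 4.93%, against 7.15% and 8.68% of all genes, and after cyclic loess 8.03% of all genes fell and 8.51% rose. Leaving out 1 array left between 13 and 24 falls: 15, 16 and 22 without siControl replicate 1, 2 or 3, and 17, 13 and 24 without siSpt6 replicate 1, 2 or 3. These are 9.15% to 16.9% of the genes, where 5.42% to 7.39% of all genes fell in the same fits.

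Genes that build snRNPs had the highest share of falls among the 8 roles: 8 of 15 fell and 0 rose, with a median of -0.57. Gemin4, a subunit of the SMN complex that loads Sm rings onto RNA, read 238, 248 and 267 with siControl and 118, 124 and 125 with siSpt6 and fell 2.05-fold (limma adjusted p = 0.00225). Wdr77, the partner of the methyltransferase PRMT5 that prepares Sm proteins for SMN, read 885, 833 and 807 with siControl and 456, 413 and 436 with siSpt6 and fell 1.93-fold (limma adjusted p = 0.00297). Both were kept after either normalization and without any 1 array. After quantile normalization 6 of the 15 fell (40.0%) and after cyclic loess 8 (53.3%, the same share as deposited). Of the Lsm, U1 and U2 genes outside the list above, 10 of 24 fell and 1 rose (1 and 1 after quantile normalization, 1 and 2 after cyclic loess). The falls were 41.7% of these 24 genes as deposited and 4.17% after either normalization. The shares of all genes were 9.65% as deposited, 7.15% after quantile normalization and 8.03% after cyclic loess, so the normalized shares lay below them. Lsm11, of the U7 snRNP that processes histone transcripts, fell 2.01-fold from 347 ± 22.3 to 173 ± 13.6 (mean intensity with SD, n = 3 per group), and Rbm17 fell 1.48-fold, a call lost without siControl replicate 1 or siSpt6 replicate 2 (limma adjusted p up to 0.0531) and after both normalizations (0.0776 and 0.0572). The rise was Snrpb2, which encodes the B-double-prime protein, bound to U2 RNA together with the A-prime protein. It read 7.06, 7.97 and 5.56 with siControl and 12.4, 15.7 and 14.3 with siSpt6, a 2.07-fold rise (limma adjusted p = 0.00878) on a dim probe, while Snrpa1, the gene of the A-prime protein, had the largest fall of the list.

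The genes of the later steps of splicing were taken next. Of all genes, 9.65% fell and 7.4% rose. The share that fell was 14.3% for tri-snRNP genes and 8.0%, below that of all genes, for the Prp19 complex and catalytic steps. It was 22.2% for exon junction complex genes and 14.3% for minor spliceosome genes. Of 14 tri-snRNP genes 2 fell: Snrnp200, the helicase that unwinds U4 from U6, 1.75-fold from 932 ± 115 to 531 ± 64.8 (mean intensity with SD, n = 3 per group), and Usp39 1.40-fold, a call lost whichever of the 6 arrays was left out (limma adjusted p 0.0632 to 0.113) and after both normalizations (0.154 and 0.132). Of 25 genes of the Prp19 complex and the catalytic steps 2 fell. They were Ppil1 (1.87-fold) and Ctnnbl1, whose product binds AID, and which read 610.4, 748 and 567 with siControl and 297, 279 and 379 with siSpt6 and fell 2.02-fold (limma adjusted p = 0.00989). Of 9 exon junction complex genes Eif4a3 and Rnps1 fell (1.45-fold and 1.50-fold) and Sap18 rose 1.85-fold. The falls were lost after both normalizations (limma adjusted p = 0.182 and 0.121 for Eif4a3, 0.165 and 0.109 for Rnps1), and Eif4a3 was also lost without siControl replicate 2 or 3 or siSpt6 replicate 1 or 2 (up to 0.064) and Rnps1 without siControl replicate 1, 2 or 3 or siSpt6 replicate 1 or 2 (up to 0.109). Of 7 minor spliceosome genes Snrnp25 fell 1.45-fold, lost without siControl replicate 1 or 2 or siSpt6 replicate 1 or 2 (limma adjusted p up to 0.0622) and after both normalizations (0.173 and 0.108).

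Among regulators, 1 of 13 SR-related genes and kinases fell (7.69%, against 9.65% of all genes). It was Srpk1, a kinase of SR proteins (1.51-fold, from 189 ± 4.69 to 125 ± 3.11, mean intensity with SD, n = 3 per group). Of 35 other hnRNP genes and splicing regulators 11 fell and 1 rose (3 and 2 after quantile normalization, 4 and 1 after cyclic loess). The falls were 31.4% of these genes as deposited, 8.57% after quantile normalization and 11.4% after cyclic loess. Of all genes, 9.65%, 7.15% and 8.03% fell in the same fits. Tardbp, which encodes TDP-43, read 3707, 3325 and 3104 with siControl and 1657, 1587 and 1709 with siSpt6 and fell 2.04-fold (limma adjusted p = 0.00292). Rbm3, a cold-induced RNA-binding protein, fell 1.91-fold on a dim probe. The rise was Mbnl2, of the muscleblind family, 1.51-fold from 141 ± 9.98 to 213 ± 12.7, a call lost without siControl replicate 2 or 3 or siSpt6 replicate 1 (limma adjusted p up to 0.0572) and kept after both normalizations.

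**Figure D5:**
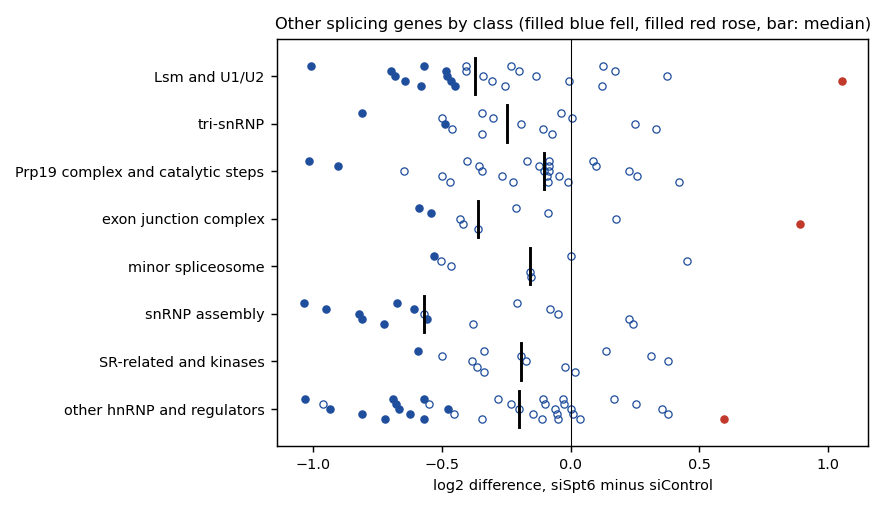
Log2 differences (siSpt6 minus siControl, deposited values) of 142 further splicing genes by role, 1 point per gene, filled blue where the gene fell and filled red where it rose (limma adjusted p under 0.05), with a bar at each class median. The median of snRNP assembly genes, at -0.57, is the lowest and that of the Prp19 complex and catalytic steps, at -0.10, the closest to 0.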

How the data were processed

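Total RNA of 6 samples was amplified, labelled with Cy5 and hybridised to 1 array each, per the labels' protocols. The deposited values are intensities on a linear scale, 1 per probe. How background was corrected and arrays were normalized is not given in the sources used, and cells marked null were treated as missing. Groups came from the titles. Intensities were taken to log2 without a pseudocount or further scaling, since the array medians (29.97 to 30.00) differed little. A probe was tested where at least 2 of 3 arrays of each group had a value, which kept 21584 probes. limma 3.58.1 in R 4.3.3 (lmFit and eBayes) compared siSpt6 with siControl, with Benjamini-Hochberg adjustment over all tested probes and a two-sided threshold of 0.05. The brightest tested probe stood for a gene. Fold changes are from the fitted log2 means. Probes were named by the platform annotation, updated to current symbols; 16631 of 23473 had 1 symbol and 6842 none. The text may name any measured member. Of the other splicing genes, each role contributes at most 2 genes in each direction, taken by lowest adjusted p among those past the threshold. Members and lists were set by gene name, with no threshold on a value, but with earlier results of these data known. The number of arrays limits the precision.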

Additional observations from a re-analysis of the deposited data

How the results depend on the processing

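With quantile normalization, members that fell numbered 9 and that rose 1, and with cyclic loess 13 and 1. The median log2 difference of the core snRNP genes was then -0.29 and -0.34, and that of the hnRNP and PTB genes -0.32 and -0.35. Log2 differences changed sign under quantile and cyclic loess for Prpf19 (0.11 and 0.088), Snrpd2 (0.065 and 0.036), Snrpg (0.075 and 0.062) and Srsf6 (0.035 and 0.0096), and under quantile for Snrpb (0.033). Of other splicing genes, 14 and 17 fell and 7 and 7 rose. With bright probes only, 133 of them were tested, of which 54 fell and 6 rose. Of the 8119 genes tested in that setting, 23.5% fell and 13.6% rose. With the trend and robust options, 51 of 142 other splicing genes fell and 5 rose, with 12.9% and 9.35% of all genes. Supt6 reached -0.42 with cyclic loess (limma adjusted p = 0.0491) and -0.39 with quantile normalization (0.096). Of called probes, 45.5% were higher as deposited, 57.3% after quantile normalization, 53.6% after cyclic loess and 36.7% among bright probes. A pseudocount gave a core median of -0.49. Leaving out 1 array gave 10 to 15 members that fell, 13 to 24 other splicing genes that fell, 2099 to 2522 probes called and a core median of -0.53 to -0.48. Same-numbered samples deviated together with correlations of 0.351, 0.0759 and 0.262, all above those of differently numbered samples, -0.29 to 0.016. The labels state no pairing, so the main fit took none, and whether the numbers mark pairs was not tested. With the replicate block, 24 members and 33 other splicing genes fell, with 9.74% of all genes. Srsf1, Hnrnpl, Sf3b2 and U2af2 were added (limma adjusted p = 0.0287, 0.0416, 0.0435 and 0.046), and 3594 probes were called. The causes were not tested. Dim probes limit Hnrnpd, Sf3a2, Snrpb2 and Supt6, as the background is not given.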
